A study of Mus musculus with 3 samples.

Results

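The genes described here encode the proteins of the cytosolic and of the mitochondrial ribosome, followed through 3 single-cell libraries of mouse bone marrow. Members were taken by symbol: Rpl or Rps followed by a digit, p or a for the cytosolic set, and Mrpl or Mrps for the mitochondrial set, leaving out 15 entries named as pseudogenes (-ps) and 10 Rps6k kinases. This gave 86 cytosolic members (52 Rpl and 34 Rps) and 77 mitochondrial members (48 Mrpl and 29 Mrps), or 163 of the 14721 genes in the deposited count table. The rule used symbols and no measured value. It also takes Rps19bp1, an Rps19-binding protein that is not a subunit, while the cytosolic subunits Fau and Rack1 and several mitochondrial subunits fall outside it because of their names.

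The cells were LSK cells, the Lin- Sca-1+ Kit+ fraction that holds blood stem cells and multipotent progenitors, and there was 1 library per genotype. The DKO library carried Spop(D/D) with Myd88(-/-), the KO library Spop(D/D) with Myd88(+/+), and the WT library Spop(+/+) with Myd88(+/+). SPOP picks the proteins that a CUL3 ligase marks with ubiquitin, and MyD88 passes on signals of Toll-like receptors and of the interleukin-1 receptor. The labels give neither the ages of the mice, nor how many were pooled, nor what drives the Spop deletion.

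The DKO library held 8184 cells with 109920419 UMIs, counted molecules of messenger RNA, the KO library 4920 cells with 101393024 and the WT library 8147 cells with 85700749. Median UMIs per cell were 12404.5 in DKO, 17319 in KO and 9245 in WT, so the libraries differed in depth as well as in genotype. Transcripts of the 2 genes that define the gate were present, with Kit at 65.9, 41.5 and 94.8 CPM (counts per 1000000 UMIs) in DKO, KO and WT, and Ly6a, which encodes Sca-1, at 89.5, 85.1 and 90.4 CPM. Myd88 stood at 4.47 CPM in DKO, 25.8 in KO and 13.7 in WT, and Spop at 77.1, 63.1 and 70.7 CPM. A 3' tag outside the deleted part does not check a deletion, and where these tags lie is not given in the sources used here. The DKO library was female by its transcripts (Xist 1537 CPM) and the other 2 were male (Xist 0 in KO and 0.187 CPM in WT), so sex and genotype cannot be told apart in comparisons with DKO. Pairs of libraries shared 54 cell barcodes (DKO and KO), 83 (DKO and WT) and 46 (KO and WT), and 0 barcodes were in all 3. With 1 library per genotype no test between genotypes was possible. All intervals are exact 95% intervals that cover counting error only.

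Ribosomes translate messenger RNA, and each cytosolic ribosome has a small subunit with the Rps proteins and a large subunit with the Rpl proteins, built in the nucleolus and exported to the cytoplasm. The mitochondrial ribosome is a separate machine whose proteins are encoded in the nucleus, made in the cytosol and imported, and it translates the messages of the mitochondrial genome, which encode subunits of the respiratory chain. In blood formation the cytosolic set is known from Diamond-Blackfan anaemia, in which loss of 1 copy of a ribosomal protein gene impairs red cell production.

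Cytosolic ribosomal protein messages are known for a 5' terminal tract that starts with C and continues in pyrimidines, through which mTOR and LARP1 control their translation, so the start regions of the members were read from the RefSeq promoter table (GRCm38.p6, from 250 bases before to 50 after each start). The table holds windows for 65 of the 86 cytosolic and 68 of the 77 mitochondrial members. A C followed by at least 4 pyrimidines exactly from the first transcribed base was found in 14 of 65 cytosolic members (21.5%), in 0 of 68 mitochondrial members and in 3.01% of all 27025 genes with a window. A looser run of at least 8 pyrimidines starting with C, anywhere within 50 bases of the start on the sense strand, was found in 53 of 65 cytosolic members (81.5%), 22 of 68 mitochondrial members (32.4%) and 31.99% of all genes. The looser search was chosen after the starts had been looked at. The windows below show such runs in capitals, first for cytosolic members, 3 of which (Rps27, Rps27l and Rpl36al) recur in the results, then for mitochondrial members that stood highest in KO, each as 30 bases 5' to 3'.
Rps6, chr4:86857349-86857378, minus strand: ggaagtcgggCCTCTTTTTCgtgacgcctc
Rpl35, chr2:39005119-39005148, minus strand: gtcggccccgCCCTTTCCTCTTTCTCTCga
Rpl7a, chr2:26910785-26910814, plus strand: ccccacaattCCCTCTTCTTTCTTTCTCCa
Rpl28, chr7:4792953-4792982, plus strand: cctctcgtgtCTCTCTTTCCgtctccggcc
Rps27, chr3:90213631-90213660, minus strand: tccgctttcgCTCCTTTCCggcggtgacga
Rps27l, chr9:66946054-66946083, plus strand: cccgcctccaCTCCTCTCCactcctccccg
Rpl36al, chr12:69184019-69184048, minus strand: ctctgttcgtCCCTTTCCTgttcggcgcgt
Mrpl12, chr11:120484618-120484647, plus strand: ggacagctcgCCTCCTCCCggatagagcgt
Mrpl20, chr4:155802884-155802913, plus strand: gtgctcttaaCCCTCTCTCCagccccaatt
Mrpl51, chr6:125192215-125192244, plus strand: cccaaaatggCTCCTCTTactgtcactacc
In Rps6, Rpl35, Rpl7a, Rpl28 and Rps27 the capitals span the annotated start. In Rps27l and Mrpl12 they lie before it, and in Rpl36al, Mrpl20 and Mrpl51 after it.

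Motifs of known factors were searched on both strands of the same windows. CGGAAG, the core bound by ETS factors such as GABPA, was in 67.7% of cytosolic and 55.9% of mitochondrial members, against 18.8% of all genes with a window. ATGGCG, part of the YY1 motif and also the letters of a start codon followed by GCG, was in 30.8% of cytosolic and 26.5% of mitochondrial members, against 10.2% of all genes. CACGTG, the E-box bound by MYC and related factors, was in 9.23% and 7.35%, against 8.09% of all genes. TATAAA was in 10.8% and 7.35%, against 15.7%. A match is a description of letters and not a site. The 150 bases before the start are shown for a pair of paralogues, Rps27 and Rps27l, which differed between the libraries in opposite ways, and for Mrpl20 and Mrpl52, which had the widest differences between libraries or classes, with any of these motifs on either strand in capitals.
Rps27, chr3:90213649-90213798, minus strand: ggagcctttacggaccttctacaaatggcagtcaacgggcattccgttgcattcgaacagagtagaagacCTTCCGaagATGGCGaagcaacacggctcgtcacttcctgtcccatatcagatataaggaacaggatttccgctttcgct
Rps27l, chr9:66945936-66946085, plus strand: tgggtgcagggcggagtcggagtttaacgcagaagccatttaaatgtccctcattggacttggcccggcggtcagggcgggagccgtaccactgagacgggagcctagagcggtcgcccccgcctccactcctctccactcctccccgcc
Mrpl20, chr4:155802728-155802877, plus strand: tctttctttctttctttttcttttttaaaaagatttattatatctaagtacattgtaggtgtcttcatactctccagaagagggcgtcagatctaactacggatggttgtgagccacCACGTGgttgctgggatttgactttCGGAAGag
Mrpl52, chr14:54426759-54426908, plus strand: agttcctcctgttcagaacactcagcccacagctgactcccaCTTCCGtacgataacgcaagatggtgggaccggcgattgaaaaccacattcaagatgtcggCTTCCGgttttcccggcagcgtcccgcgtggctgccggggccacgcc
Rps27 held ATGGCG on the strand shown and CGGAAG on the opposite strand, where it reads CTTCCG above. Mrpl20 held CACGTG and CGGAAG, and Mrpl52 held CGGAAG 2 times on the strand opposite to the one shown. The 150 bases shown for Rps27l held none of them, but the table has a second start window for this gene, and over both windows Rps27l, like Rps27, held CGGAAG and ATGGCG.

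The cytosolic set was a large part of all UMIs in every library, at 36.8% in DKO, 36.6% in KO and 39.2% in WT. The mitochondrial set made up 0.777% in DKO, 1.01% in KO and 0.702% in WT. The KO library therefore had the lowest ratio of cytosolic to mitochondrial UMIs, 36.2, against 47.4 in DKO and 55.8 in WT. Pooled over its members, the mitochondrial set stood at 1.44-fold in KO relative to WT (1.43 to 1.44), 0.768-fold in DKO relative to KO (0.766 to 0.771) and 1.11-fold in DKO relative to WT (1.10 to 1.11). The cytosolic set stood at 0.934-fold in KO relative to WT, at 1.01-fold in DKO relative to KO and at 0.939-fold in DKO relative to WT. Large and small subunits gave similar ratios in the 3 libraries: the ratio of Rpl to Rps UMIs was 1.190 in DKO, 1.199 in KO and 1.158 in WT, and that of Mrpl to Mrps UMIs was 1.88, 1.94 and 1.85. Transcripts of the mitochondrial genome itself made up 2.72% in DKO, 2.87% in KO and 3.07% in WT, lowest in DKO and highest in WT, an order unlike that of the mitochondrial ribosomal proteins. Fewer cells of a type and less RNA per cell cannot be told apart in such sums.

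Cytosolic members were among the most abundant messages, with a median of 4450 CPM over the 86 in DKO, 4371 in KO and 4618 in WT, and 80 of them were detected in at least 95% of cells in each library. Mitochondrial members had medians of 86.6, 108 and 77.5 CPM. They were detected in a median of 64.5% of DKO, 77.9% of KO and 52.2% of WT cells, which is also the order of median UMIs per cell. Within single cells the median cytosolic share was 37.2% in DKO, 37.9% in KO and 39.8% in WT, and the KO cells were spread most widely (SD over cells 3.27, 4.67 and 3.76 percentage points). The median mitochondrial share per cell was 0.741% in DKO, 0.926% in KO and 0.663% in WT. The ranges over cells overlapped between libraries for both sets.

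**Figure D1:**
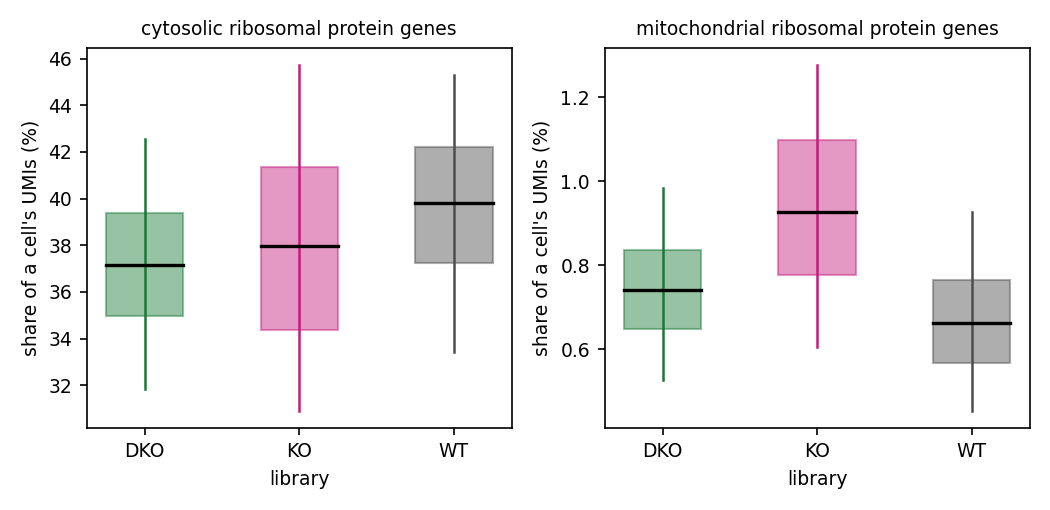
Share of each cell's UMIs on cytosolic (left) and mitochondrial (right) ribosomal protein genes, in percent, for the DKO, KO and WT libraries; the black line is the median over cells, the box spans the 25th to 75th and the thin line the 5th to 95th percentile. The axes do not start at 0. The KO median is the highest of the mitochondrial panel at 0.926%, and the WT median is the highest of the cytosolic panel at 39.8%.

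Gene by gene, most mitochondrial members stood higher in KO than in WT and lower in DKO than in KO. Members averaging at least 5 CPM over the 2 libraries of a pair were taken as measured, which left 84 cytosolic and 76 mitochondrial members in each pair, and a difference of at least 1.5-fold is a call below. Of the 76 mitochondrial members, 24 were called higher in KO than in WT and 0 lower, where 7.77% of all measured genes were called higher and 17.1% lower, and 74 had a log2 ratio above 0, as did 43.7% of all genes. Their median log2 ratio was 0.46, against -0.08 over all measured genes. In DKO relative to KO, 7 were called lower and 1 higher, where 6.32% of all genes were called lower and 17.9% higher, and 70 of 76 lay below 0, as did 38.4% of all genes. The median was -0.33, against 0.13 over all genes. Between DKO and WT none of the 76 was called in either direction, where 3.62% of all genes were called higher and 3.55% lower. In that pair 71 lay above 0, as did 57.7% of all genes, and the median was 0.17, against 0.06. Each library enters 2 of the 3 comparisons, so they are not independent of each other.

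The cytosolic set was narrower. In KO relative to WT 2 of 84 members were called higher and 1 lower, where 7.77% and 17.1% of all genes were. In DKO relative to KO 1 was called higher and 3 lower (17.9% and 6.32% of all genes). In DKO relative to WT 0 were called in either direction (3.62% and 3.55%). The median log2 ratios were -0.06, -0.03 and -0.08, against -0.08, 0.13 and 0.06 over all genes. In KO relative to WT 57 of the 84 lay below 0, as did 56.3% of all genes. TMM scaling shifted all genes alike: the KO over WT median was then 0.086 for the cytosolic set and 0.075 for all genes, so the set lay close to all genes under both scalings. Mitochondrial calls in KO relative to WT were 46 higher and 0 lower under TMM, where 13.8% of all genes were called higher and 11.8% lower. In DKO relative to WT 71 of 84 cytosolic members lay below 0, as did 42.3% of all genes.

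**Figure D2:**
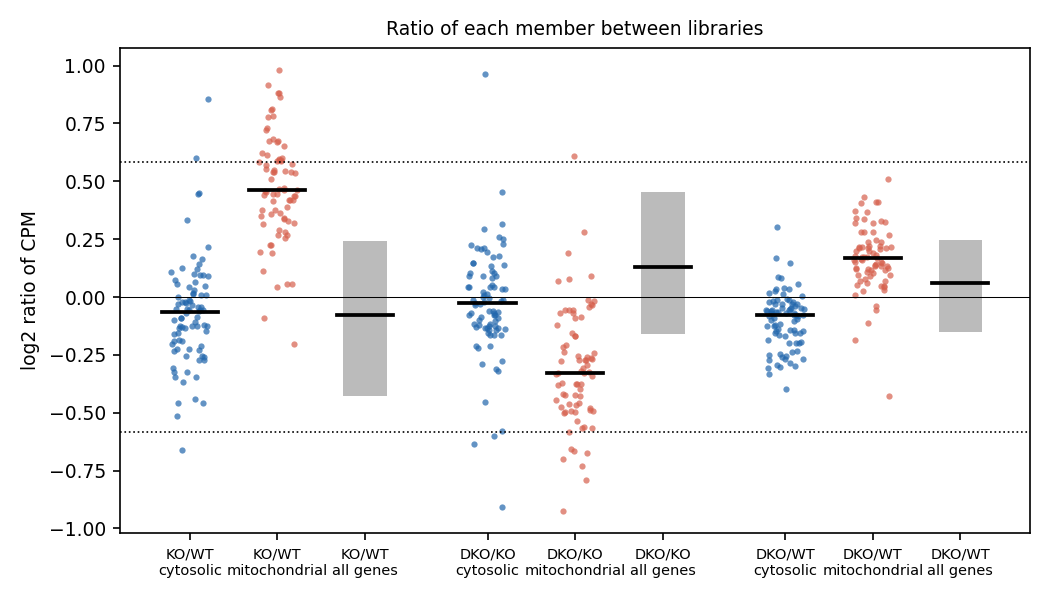
Log2 ratio of CPM for each measured member (points, at a pair mean of at least 5 CPM) in KO/WT, DKO/KO and DKO/WT, with the median as a black line; the grey bar spans the 25th to 75th percentile of all measured genes and the dotted lines mark 1.5-fold. The mitochondrial medians are 0.46, -0.33 and 0.17, and the cytosolic medians lie between -0.08 and -0.03.

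Among large-subunit proteins of the cytosolic ribosome, Rpl29 stood apart. Rpl29 (chromosome 9, 106429454 to 106431568, GRCm38) was at 2406 CPM in DKO, 1232 CPM in KO and 1950 CPM in WT. It was 0.632-fold in KO relative to WT (0.627 to 0.636) and 1.95-fold in DKO relative to KO (1.94 to 1.97), with DKO highest, and it was the cytosolic member with the highest ratio in DKO relative to KO and the lowest in KO relative to WT. Rpl29 lies 12.9 Mb from Myd88 on the same chromosome, and the part of this position in the DKO level was not tested. Rpl29 was low in KO in every class of cells that could be compared, as described with the classes. Rpl3, which lies near the peptidyl transferase centre, was at 5134 CPM in DKO, 3748 in KO and 4840 in WT, 1.37-fold in DKO relative to KO. Rpl15 was at 1227, 1049 and 1497 CPM, 0.701-fold in KO relative to WT and just short of the 1.5-fold line. Rpl41, a peptide of the large subunit that is among the shortest of eukaryotic proteins, had the opposite order, with 4125 CPM in DKO, 6253 CPM in KO and 4589 CPM in WT, and was 0.660-fold in DKO relative to KO, just past the line. Ribosomal protein genes have many processed copies in the mouse genome, so reads of some members may have been lost or misassigned in counting, and the levels of single members are uncertain to that extent.

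Several paralogues differed from their partners. Rps27l, a p53-inducible relative of Rps27, was at 571 CPM in DKO, 1071 CPM in KO and 593 CPM in WT, 1.81-fold in KO relative to WT (1.79 to 1.83) and 0.533-fold in DKO relative to KO. Its partner Rps27 was at 2520, 2447 and 3322 CPM, 0.737-fold in KO relative to WT and 0.759-fold in DKO relative to WT, the lowest cytosolic ratio of that pair. The KO library was thus the highest of the 3 for Rps27l and the lowest for Rps27. Rpl36al was at 960 CPM in DKO, 1436 CPM in KO and 948 CPM in WT, and was 1.52-fold in KO relative to WT, just past the line, and 0.669-fold in DKO relative to KO, just short of it. Its X-linked partner Rpl36a was at 2884, 3046 and 3473 CPM. Rpl22l1, which in mouse can stand in for Rpl22, was at 1229 CPM in DKO, 1297 in KO and 1522 in WT, and Rpl22 was at 1953, 2278 and 2018 CPM. Rpl7l1 was at 96.8, 108 and 86.0 CPM. Rpl3l, a form known from striated muscle, stayed near the limit of detection, at 1.37, 0.217 and 0.945 CPM, and Rpl39l, known from male germ cells, had a count of 0 in DKO, which allows up to 0.0273 CPM, against 1.805 CPM in KO and 0.828 CPM in WT. Neither reached 5 CPM. Rps19bp1, not a ribosomal protein, was at 56.6, 87.95 and 64.4 CPM.

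The X-linked members named here were lower in DKO than in WT and had no common direction between DKO and KO. Rps4x was at 7394 CPM in DKO, 5937 in KO and 8160 in WT, Rpl10 at 4643, 4326 and 4830 CPM, and Rpl39 at 4177, 4377 and 4994 CPM. In DKO relative to KO, Rps4x was 1.245-fold and Rpl39 0.954-fold. Rpl10 was also higher in DKO than in KO, and Rpl36a, given above, was lower. The part of sex in these levels was not tested.

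The genes described here from Diamond-Blackfan anaemia or the 5q- syndrome lay within 1.5-fold in every pair, like most of the cytosolic set. Of its 84 measured members, 81 did so in KO relative to WT, 80 in DKO relative to KO and 84 in DKO relative to WT. Of all measured genes, 6793 of 9046, 6796 of 8973 and 8545 of 9205 did so in these pairs. Rps14, the 5q- gene, was at 7416 CPM in DKO, 6702 in KO and 8100 in WT. Rps19 was at 7714, 7182 and 8403 CPM. Rps24 was at 7584, 6327 and 8691 CPM, 0.728-fold in KO relative to WT. Rps26 had the opposite order, at 1477, 2024 and 1740 CPM, 0.730-fold in DKO relative to KO. Rpl5, Rpl11 and Rpl35a had KO over WT ratios between 0.910 and 1.005. Rpl5 and Rpl11 are the proteins that bind Mdm2 when ribosome assembly fails. Rpsa, whose loss causes absence of the spleen in humans, was at 5453, 5119 and 5328 CPM. Rpl24 and Rpl38, altered in the mouse mutants Belly spot and tail and Tail short, were at 2905, 3185 and 3041 CPM and at 2240, 2507 and 2698 CPM. Among the most abundant cytosolic members of WT were Rpl32, Rpl13, Rps24 and Rps19, between 8403 and 9248 CPM in that library.

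In the mitochondrial large subunit, Mrpl20 had the highest KO over WT ratio and the lowest DKO over KO ratio. Mrpl20 was at 173 CPM in DKO, 328 CPM in KO and 166 CPM in WT, 1.98-fold in KO relative to WT (1.94 to 2.01) and 0.527-fold in DKO relative to KO (0.518 to 0.537). Mrpl51 was at 149, 257 and 136 CPM, 1.89-fold in KO relative to WT. Mrpl12, which sits on the stalk of the large subunit and has been described to bind the mitochondrial RNA polymerase, was at 198, 328 and 178 CPM, 1.84-fold in KO relative to WT and 0.603-fold in DKO relative to KO. The DKO over WT ratios of Mrpl20, Mrpl51 and Mrpl12 were 1.04, 1.09 and 1.11, so KO stood apart from both other libraries in each. Mrpl57 was at 156, 220 and 121 CPM. Mrpl16 was at 70.9 CPM in DKO, 87.5 in KO and 49.8 in WT, and its 1.42-fold in DKO relative to WT was the highest of the set in that pair. Mrpl33, the most abundant mitochondrial member of WT, was at 263, 420 and 254 CPM. Mrpl24 and Mrpl23 were among those that did not follow, at 146, 148 and 144 CPM and at 239, 246 and 228 CPM. Mrpl53 did not reach 5 CPM. At the edge of the call, Mrps11 and Mrpl52 (1.503 each) were just inside the 1.5-fold line of KO over WT, and Mrpl30 (1.4995) and Mrps36 (1.49) just outside it.

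In the mitochondrial small subunit, Mrps18b was at 68.5 CPM in DKO, 101 in KO and 54.9 in WT, 1.84-fold in KO relative to WT. Mrps31 went the other way, at 30.8 CPM in DKO, 20.2 CPM in KO and 23.3 CPM in WT. It was the lowest of the set in KO relative to WT (0.868-fold, 0.816 to 0.924) and the single mitochondrial member called higher in DKO relative to KO (1.52-fold, 1.44 to 1.61). Mrps6 was at 27.2, 34.5 and 36.6 CPM, the lowest ratio of DKO relative to WT (0.743-fold). Mrps21 was at 92.7, 151 and 106 CPM, and Mrps9 at 71.5, 58.8 and 56.5 CPM. The most abundant small-subunit members of WT, Mrps33 and Mrps14, were at 245, 273 and 220 CPM and at 222, 279 and 215 CPM.

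The libraries held different mixtures of cells, and the whole-library values have to be read beside that. Summed CPM of 9 neutrophil progenitor markers was 2018 in DKO, 7661 in KO and 1054 in WT, that of 13 erythroid markers 931, 1847 and 688, and that of 13 B lineage markers 66.0, 44.7 and 984, with 4 of the 13 at 0 in KO. Cells were clustered without ribosomal, mitochondrial, sex-linked and cell cycle genes, and clusters were named from marker lists. Of 17 clusters, 10 took a name, and "-like" marks that names rest on transcripts. Neutrophil-progenitor-like cells numbered 74 in DKO and 1380 in KO, erythroid-progenitor-like cells 88 in DKO and 1039 in KO, and B-lineage-like cells 648 in WT, with under 50 cells of these classes elsewhere. Stem-cell-like cells numbered 589 in DKO, 78 in KO and 904 in WT, lymphoid-primed-like cells 513, 85 and 1697, and megakaryocyte-progenitor-like cells 1272, 623 and 559. A cluster of the last class, led by Prss34, held 667 DKO, 392 KO and 342 WT cells. Its top genes included 3 basophil-mast progenitor markers beside 6 of megakaryocyte progenitors. At Leiden resolution 1.5 an unnamed cluster led by Prss34 and Mt2 held 187 DKO, 190 KO and 37 WT cells. Another 1581 KO cells, with 18 DKO and 21 WT cells, formed an unnamed cluster led by Vldlr and Ifitm1, which gave 40.3% cytosolic and 0.844% mitochondrial UMIs in KO.

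Across the classes of KO and WT the 2 sets ran in opposite directions. In KO, the cytosolic share was 42.9% in stem-cell-like, 42.7% in lymphoid-primed-like, 38.3% in megakaryocyte-progenitor-like, 37.3% in erythroid-progenitor-like and 33.8% in neutrophil-progenitor-like cells. The mitochondrial share of the same KO classes was 0.691%, 0.705%, 0.886%, 0.992% and 1.16%. The erythroid-progenitor-like class of KO joined a cluster led by globin genes (36.9% cytosolic and 0.991% mitochondrial) with one led by Mt2 and Car1. That second cluster was high in both sets (42.9% and 1.01%). In WT, stem-cell-like cells had the highest cytosolic and lowest mitochondrial share (42.0% and 0.626%) and B-lineage-like cells the lowest cytosolic and highest mitochondrial share (35.6% and 0.811%). In DKO, the order of the cytosolic set was less clear, and erythroid-progenitor-like cells had the highest mitochondrial share beside a cytosolic share near the highest. Stem-cell-like cells had 38.7% and 0.672%, lymphoid-primed-like cells 38.9% and 0.721%, megakaryocyte-progenitor-like cells 34.97% and 0.840%, neutrophil-progenitor-like cells 35.3% and 0.943%, and erythroid-progenitor-like cells 38.1% and 1.07%. Over clusters of at least 50 cells the correlation of the 2 shares was -0.46 in DKO (13 clusters), -0.73 in KO (8) and -0.83 in WT (12), as a description of points that share a library and a denominator.

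**Figure D3:**
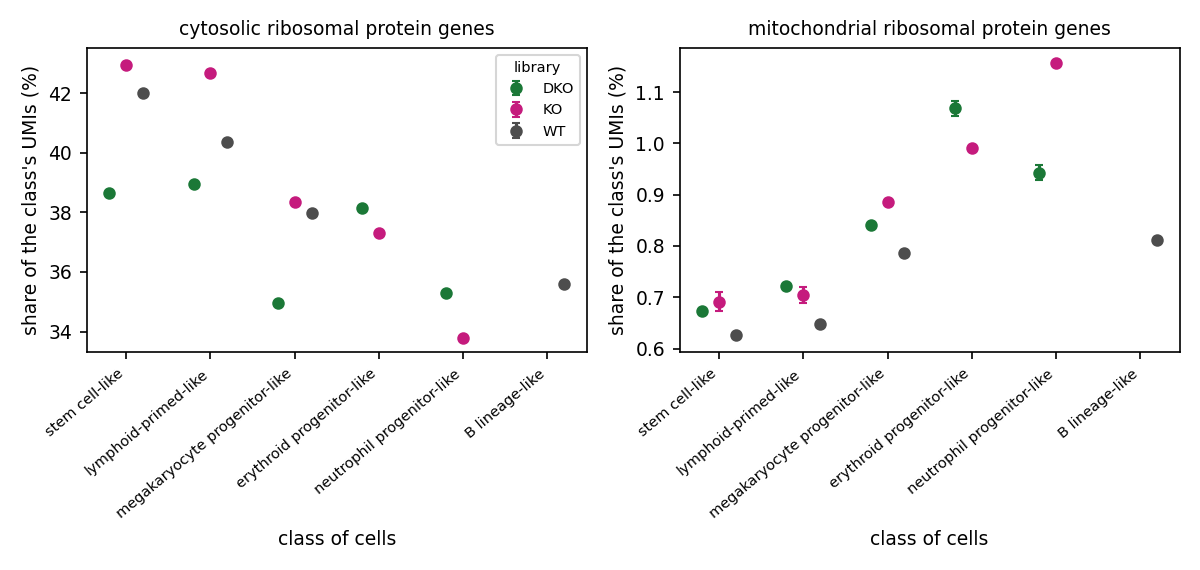
Share of a class's UMIs on cytosolic (left) and mitochondrial (right) ribosomal protein genes, in percent, for classes with at least 50 cells in the library; points are sums over cells and bars exact 95% binomial intervals, mostly smaller than the points. The axes do not start at 0. From stem-cell-like to neutrophil-progenitor-like cells of KO the cytosolic share goes down to 33.8% and the mitochondrial share up to 1.16%.

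Within classes the difference between KO and WT in the mitochondrial set was much smaller than in the whole libraries. Pooled, it was 1.11-fold in stem-cell-like cells (1.07 to 1.14), 1.09-fold in lymphoid-primed-like cells (1.06 to 1.11) and 1.13-fold in megakaryocyte-progenitor-like cells (1.12 to 1.14), against 1.44-fold over all cells. Members with a log2 ratio above 0 numbered 55 of the 71 measured at 20 CPM or more in stem-cell-like cells (46.3% of all genes), 52 of 73 in lymphoid-primed-like cells (39.5%) and 63 of 73 in megakaryocyte-progenitor-like cells (44.2%). Of these, 1 was called higher, Mrpl47 in stem-cell-like cells (3.38% of all genes), 0 in lymphoid-primed-like (2.03%) and 0 in megakaryocyte-progenitor-like cells (1.38%). Lower calls among both sets numbered 0 in stem-cell-like (5.66% of all genes), 0 in lymphoid-primed-like (6.51%) and 1, Rpl29, in megakaryocyte-progenitor-like cells (2.43%). Leaving out the erythroid, neutrophil and B lineage classes gave 1 mitochondrial member called higher in KO relative to WT (2.13% of all genes) and 0 called lower in DKO relative to KO (1.77% of all genes), so these counts stood near the share of all genes. The mitochondrial median log2 ratio of KO relative to WT was then 0.26, against -0.087 over all genes. The same step moved the KO shares to 39.9% cytosolic and 0.844% mitochondrial. The cytosolic set stood at 1.02-fold, 1.06-fold and 1.01-fold in KO relative to WT in the same 3 classes, on the other side of 1 from the whole libraries. KO cells had more UMIs than WT cells in each of the 4 clusters that could be compared (median UMIs 1.16 to 1.24 times those of WT), where the mitochondrial ratio was 1.05 to 1.17. In cells of 8000 to 16000 UMIs, which left 3 of these clusters, it was 1.05 to 1.08. The part of cell mixture in the whole-library values was not tested beyond these values, nor was that of unlike mixtures within a class.

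In DKO relative to KO, the cytosolic set was lower by a similar amount in stem-cell-like (0.900-fold), lymphoid-primed-like (0.912-fold) and megakaryocyte-progenitor-like cells (0.912-fold), although it was at 1.01-fold over all cells. Only 8, 11 and 10 of the 84 members lay above 0 in these classes, where 64.6%, 63.9% and 67.9% of all genes did. The mitochondrial set stood at 0.973-fold (0.945 to 1.001), 1.02-fold (0.999 to 1.05) and 0.948-fold (0.940 to 0.956). The only cytosolic member called in these 3 classes was Rpl29, higher in each. Mitochondrial calls were 4 higher and 0 lower in stem-cell-like cells (12.1% and 3.24% of all genes), 3 higher and 1 lower in lymphoid-primed-like cells (10.7% and 3.07%) and 0 in either direction in megakaryocyte-progenitor-like cells (5.25% and 1.04%). The first 2 of these classes held only 78 and 85 KO cells. The intervals of Mrpl1 in stem-cell-like cells (0.894 to 3.03) and of Mrps22 in lymphoid-primed-like cells (0.957 to 2.61), both called higher, included 1. Neutrophil-progenitor-like cells differed in the direction of the cytosolic set, which stood at 1.04-fold, with the mitochondrial set at 0.815-fold (0.803 to 0.828) and 12 of 75 mitochondrial members above 0 where 46.5% of all genes were. There 6 mitochondrial members were called lower and 1 higher, where 6.33% of all genes were called lower and 7.58% higher. Mrpl20 was at 260 CPM in the 74 DKO cells and 425 CPM in the 1380 KO cells. The top 15 genes of this class held 3 monocyte-dendritic markers beside 5 neutrophil progenitor markers. At Leiden resolution 1.5 there was an unnamed cluster led by Ly6c2 and F13a1 (48 DKO and 725 KO cells). A neutrophil-progenitor-like cluster led by Ms4a3 then held 14 DKO and 802 KO cells. The class may thus mix cells in unlike proportions, and the part of this was not tested. Its median UMIs were 26178 in DKO and 33882 in KO, and the part of depth was not tested either. In cells of 8000 to 16000 UMIs, 3 clusters could be compared between DKO and KO. Their mitochondrial ratios were 0.968 to 0.989 and their cytosolic ratios 0.901 to 0.906. Erythroid-progenitor-like cells gave 1.02-fold and 1.08-fold, with 58 of 74 mitochondrial members above 0 (51.7% of all genes), 5 called higher (9%) and 0 lower (9.53%), but most DKO cells of that class lay in a cluster led by Mt2 and Car1 (86 DKO and 53 KO cells) and most KO cells in one led by globin genes (986 cells), and within the first cluster the cytosolic set was at 0.893-fold in DKO relative to KO.

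DKO and WT shared more clusters, named or not, and differed in the same direction in each. In 11 clusters with at least 50 cells in both libraries, the cytosolic share was lower in DKO in 11, by ratios from 0.920 to 0.978, and the mitochondrial share was higher in DKO in 11, by ratios from 1.05 to 1.16. DKO cells also had more UMIs in each of the 11, with median UMIs 1.13 to 1.399 times those of WT. In cells of 8000 to 16000 UMIs alone, a range added after the clusters had been compared, the cytosolic share was again lower in 11 of 11 (0.920 to 0.977) and the mitochondrial share higher in 11 of 11 (1.02 to 1.12), with median UMIs still 1.01 to 1.17 times those of WT. In stem-cell-like cells 60 of 74 mitochondrial members and 9 of 84 cytosolic members had a DKO over WT log2 ratio above 0, where 65.6% of all genes did. In megakaryocyte-progenitor-like cells the counts were 62 of 74 and 8 of 84 (63.9% of all genes), and in lymphoid-primed-like cells 62 of 74 and 29 of 84 (57% of all genes). The calls were few: 1 mitochondrial member, Mrps31, was higher in stem-cell-like cells (4.08% of all genes), 2, Mrpl27 and Mrps31, in lymphoid-primed-like cells (2.65%) and 0 in megakaryocyte-progenitor-like cells (2.53%). No member of either set was called lower in these classes, where 1.02%, 2.53% and 0.868% of all genes were. Clusters of 1 library are not replicates, so the 11 do not add to the 1 library per genotype.

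Single members departed from the common pattern in particular classes. Rpl29 was at 2313 CPM in DKO, 1327 CPM in KO and 1955 CPM in WT stem-cell-like cells. It was at 2531, 1379 and 2051 CPM in lymphoid-primed-like cells and at 2362, 1266 and 1999 CPM in megakaryocyte-progenitor-like cells. In erythroid-progenitor-like cells it was at 2754 CPM in DKO and 1245 CPM in KO, and in neutrophil-progenitor-like cells at 2349 and 1177 CPM. The KO level was therefore the lowest of the libraries compared in each of these classes. The ratio of DKO to KO lay between 1.74 (stem-cell-like) and 2.21 (erythroid-progenitor-like). Over classes, Rpl29 ranged from 1177 to 1379 CPM in KO, from 2313 to 2754 CPM in DKO and from 1955 to 2051 CPM in WT. Rpl29 was picked for its ratios, the classes of a library are not replicates, and no share of all genes with such separate ranges was taken.

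Rps27l varied with the class of cells. It was at 416 CPM in DKO, 498 in KO and 445 in WT stem-cell-like cells, at 961 CPM in DKO and 924 CPM in KO erythroid-progenitor-like cells, and at 829 and 1324 CPM in neutrophil-progenitor-like cells. It had the widest spread over classes of the cytosolic set in each library, 2.31-fold in DKO, 2.66-fold in KO and 1.76-fold in WT, while the median member varied 1.19-fold, 1.31-fold and 1.19-fold. Its KO over WT ratio was 1.12 in stem-cell-like (1.004 to 1.244), 1.31 in lymphoid-primed-like and 1.35 in megakaryocyte-progenitor-like cells, against 1.81 in the whole libraries. The lymphoid-primed-like class joins 2 clusters in unlike proportions (31 and 54 cells in KO, 995 and 702 in WT), and within the second, the one of them with enough KO cells to compare, the ratio was 1.17. Rpl36al was at 1297 and 1400 CPM in DKO and KO erythroid-progenitor-like cells, against 792 and 997 CPM in stem-cell-like cells.

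Mitochondrial members varied more between classes, by a median of 1.58-fold in DKO, 1.79-fold in KO and 1.43-fold in WT. Mrpl52, named after its values were seen, was at 503 CPM in DKO and 555 CPM in KO erythroid-progenitor-like cells, at 213, 275 and 222 CPM in DKO, KO and WT stem-cell-like cells, at 100 and 142 CPM in DKO and KO neutrophil-progenitor-like cells and at 84.0 CPM in WT B-lineage-like cells. Its spread over classes was the widest of the set in DKO (5.01-fold) and WT (2.64-fold). In KO the widest was that of Mrps22 (4.35-fold, highest in neutrophil-progenitor-like cells), also named after its values were seen. It was at 17.7 CPM in the 85 lymphoid-primed-like cells of KO, a level that rests on few counts. Mrpl33 was at 558 CPM in DKO and 547 CPM in KO neutrophil-progenitor-like cells, and between 190 and 303 CPM in the other classes of the 3 libraries. Mrpl20 was at 131, 145 and 133 CPM in DKO, KO and WT stem-cell-like cells, and at 301 CPM in DKO and 284 CPM in KO erythroid-progenitor-like cells. Of the members with a median of at least 20 CPM over classes, 62 of 73 were highest in neutrophil-progenitor-like cells of KO, 51 of 74 in erythroid-progenitor-like cells of DKO and 50 of 74 in B-lineage-like cells of WT. Stem-cell-like cells were the lowest class for 46 of 74 in DKO, 38 of 73 in KO and 46 of 74 in WT. Mrpl24, in contrast, varied 1.12-fold in DKO and 1.19-fold in KO.

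**Figure D4:**
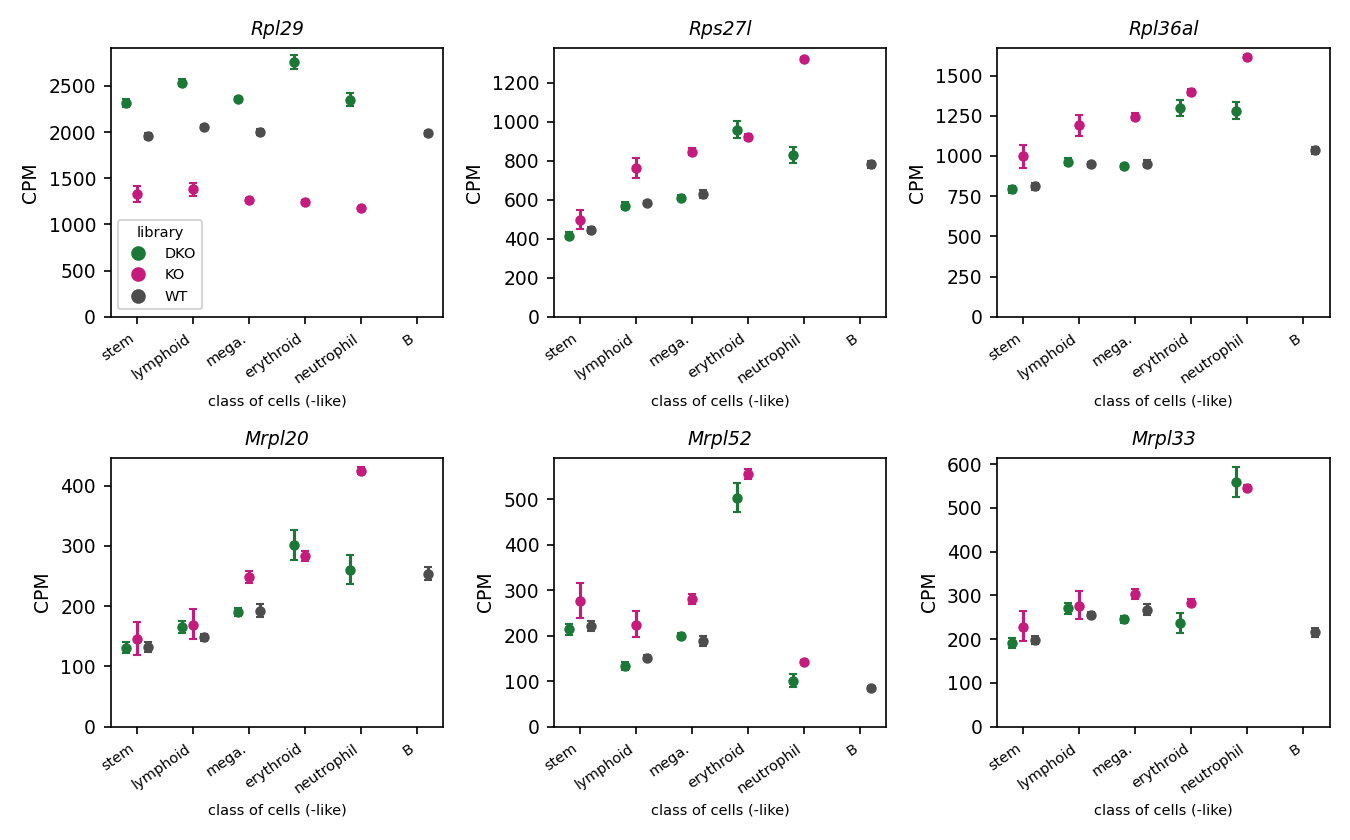
CPM of 3 cytosolic (top) and 3 mitochondrial (bottom) members by class of cells in the DKO, KO and WT libraries; bars are exact 95% Poisson intervals and classes under 50 cells in a library are not drawn. The KO points of Rpl29 lie at 1177 to 1379 CPM in all 5 classes and the DKO points at 2313 to 2754 CPM, Mrpl52 reaches 555 CPM in erythroid-progenitor-like cells, and Mrpl33 reaches 558 CPM in neutrophil-progenitor-like cells.

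Both shares varied with the number of UMIs per cell. When the cells of each library were divided into 4 equal groups by depth, the cytosolic share of KO was 40.9%, 39.3%, 37.5% and 33.8% and its mitochondrial share 0.771%, 0.872%, 0.971% and 1.15% from the shallowest to the deepest group. In DKO the cytosolic share was 38.1%, 38.2%, 36.6% and 35.7% and the mitochondrial share 0.664%, 0.701%, 0.772% and 0.857%. In WT they were 39.9%, 41.0%, 39.8% and 37.7%, and 0.608%, 0.618%, 0.689% and 0.783%. Deeper cells thus had a larger mitochondrial share in all 3 libraries. Over cells the correlation of mitochondrial share with UMIs was 0.52 in DKO, 0.67 in KO and 0.48 in WT, given without a test. UMIs per cell differ between classes as well, with a median of 33882 in KO neutrophil-progenitor-like and 9612.5 in KO stem-cell-like cells, and the part of each was not tested. In cells of 8000 to 16000 UMIs the mitochondrial share was 0.727% in DKO, 0.822% in KO and 0.693% in WT, and the cytosolic share 37.6%, 40.3% and 39.5%. Cells with over 1% of UMIs on G2 and M phase genes had a cytosolic share of 34.2% in DKO, 35.6% in KO and 36.1% in WT. The other cells kept were higher, at 37.1%, 36.6% and 39.4%. The mitochondrial shares were 0.776%, 0.924% and 0.721%, against 0.777%, 1.02% and 0.704%. From both groups 178 DKO, 0 KO and 683 WT cells were left out, with median UMIs of 5176 in DKO and 4817 in WT. This cycling state was chosen after a threshold on S phase genes had caught almost no cells.

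**Figure D5:**
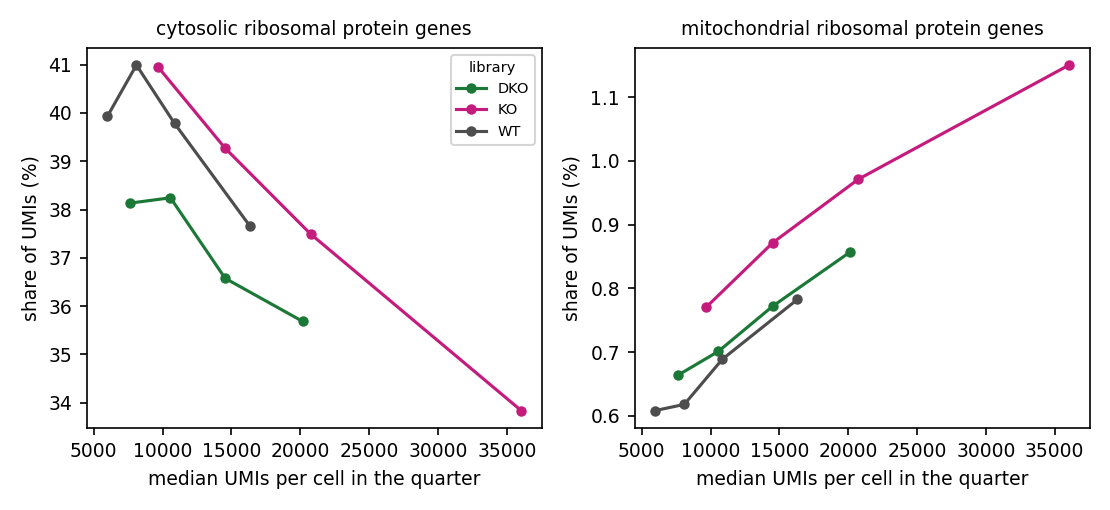
Share of UMIs on cytosolic (left) and mitochondrial (right) ribosomal protein genes, in percent, against the median UMIs per cell of the 4 depth groups of the DKO, KO and WT libraries. The axes do not start at 0. The mitochondrial share goes up with depth in each library, to 0.857%, 1.15% and 0.783% in the deepest groups of DKO, KO and WT.

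Other genes of ribosome production were compared by list over whole libraries, without values by class. Of all genes, 7.77% were called higher and 17.1% lower in KO relative to WT. In DKO relative to KO 17.9% were called higher and 6.32% lower, and in DKO relative to WT 3.62% and 3.55%. Of 41 measured ribosome biogenesis genes 11 were called higher in KO than in WT and 0 lower (median log2 ratio 0.40), and in DKO relative to KO 8 were called lower and 0 higher (-0.27). Bysl, a factor of small subunit maturation, was at 18.8 CPM in DKO, 32.9 in KO and 16.3 in WT, and Nhp2, a protein of the box H/ACA particles that modify ribosomal RNA, at 269, 493 and 248 CPM. Rrp12, an export factor of pre-ribosomes, was at 9.79, 17.4 and 9.17 CPM. None of the 41 was called in DKO relative to WT. The 20 measured cofactors of the cytosolic ribosome had 0 calls in any pair. Among them Npm1, a nucleolar chaperone, was at 2181, 2651 and 1988 CPM, and Eef1a1, the elongation factor that delivers aminoacyl-tRNA, at 9911, 7491 and 9587 CPM.

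Of 7 genes linked to the mitochondrial ribosome but without Mrp names, 2 were called higher in KO than in WT and 0 lower (median 0.53). Of all genes 7.77% were called higher and 17.1% lower in that pair. The 2 were Gadd45gip1 (155 CPM in DKO, 228 in KO and 138 in WT) and Ict1 (69.9, 92.2 and 58.5 CPM). Of 21 genes of mitochondrial translation and assembly, 3 were called higher in KO than in WT and 0 lower (median 0.18), beside the same shares of all genes. The 3 were Gfm1, an elongation factor, Slirp, an RNA-binding protein that stabilises mitochondrial messages, and Fastkd2, an assembly factor of the mitochondrial ribosome. Between DKO and KO 2 of the 21 were called lower and 0 higher, where 6.32% of all genes were called lower and 17.9% higher. The median of the list was 0.12 in that pair, close to the 0.13 of all genes. Slirp stood at 111 CPM in DKO, 181 in KO and 117 in WT. Of the same 21, 2 were called higher and 0 lower in DKO relative to WT (3.62% and 3.55% of all genes). The 13 genes of the mitochondrial genome had 0 calls in any pair, with mt-Co1, a subunit of cytochrome c oxidase, at 5136, 4728 and 6264 CPM. Of 14 measured growth regulators, 4 were called lower and 1 higher in KO than in WT (median -0.29), where 17.1% of all genes were called lower and 7.77% higher. Mxd4, an antagonist of MYC, was at 61.9 CPM in DKO, 26.4 in KO and 77.3 in WT, Mycn at 26.6, 11.4 and 31.1 CPM, and Eif4ebp1, an inhibitor of translation initiation under mTOR, at 121, 164 and 100 CPM. Myc itself was at 99.2, 81.2 and 86.0 CPM. Mxd4 and Mycn were also called higher in DKO relative to KO, at 2.34-fold and 2.32-fold, where 17.9% of all genes were called higher.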

How the data were processed

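The single-cell 3' libraries (10x Chromium v2, per the labels' protocols) were analysed from the deposited table of raw UMI counts per gene and cell, which the authors made with tools that the submitters' processing notes name as bcl2fastq, Cell Ranger and Seurat, on mm10. Their versions, and the filters on cells, are not given in the sources used here. The authors' normalized table was not used. Gene positions came from GENCODE vM21 (GRCm38), in which each of the 163 members matched 1 gene, and start windows from RefSeq (GRCm38.p6).

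The counts were added up over the cells of a library, class or cluster and divided by the total to give CPM, and log2 ratios were taken from these deposited counts. CPM is not scaled by length, as 3' tags count molecules. Members were measured at a pair mean of at least 5 CPM in libraries and 20 CPM in classes, and called at 1.5-fold. A count of 0 was taken as up to 3 counts. Shares have exact binomial (Clopper-Pearson), levels exact Poisson and ratios exact conditional binomial 95% intervals. No test was made between genotypes, since there was 1 library for each.

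Cells were clustered with scanpy 1.11.5 (2000 variable genes, 30 principal components, 20 neighbours, Leiden resolution 1). A cluster was named when at least 3 markers of 1 list were in its top 15 genes with a lead of 2, a rule set after clusters had been seen. Units under 50 cells were not compared. Automatic Scrublet calls covered 0.0611% of DKO, 0.102% of KO and 0.0245% of WT cells, too few to be usable, so doublets were kept, and an alternative removed the 536, 194 and 531 cells with the highest scores. TMM factors came from edgeR 4.0.16.

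The members, lists and comparisons were chosen with earlier results of these data known. The text names, by rule, members at the top 5 and bottom 5 of the ratios in a pair and set (mean of at least 20 CPM), the 5 most abundant of each set in WT, paralogues with their partners, X-linked, disease-linked and mutant-linked members, and Rps19bp1; for each pathway list, the most changed; some picks are given only within counts or are not reported here. Motifs and the cycling state were chosen after the files had been seen. The ratio and call steps were tested on simulated data. Alternatives were other scalings, level filters, folds, depth ranges, cell sets, resolutions and doublet removal.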

Additional observations from a re-analysis of the deposited data

Results flagged for a closer look

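Counts appeared on entries that the member rule leaves out. The 15 ribosomal entries named as pseudogenes (-ps) held 0.221% of all UMIs in DKO, 0.252% in KO and 0.252% in WT, far above the limit that a count of 0 allows. They took less of the DKO library than of the other 2, at 0.879-fold in DKO relative to KO (0.874 to 0.883), while the cytosolic members themselves were at 1.01-fold in that pair. Whether these reads came from the entries or from parent genes was not tested.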

How the results depend on the processing

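No paired analysis was possible because there was 1 library per genotype, and for the same reason no library could be left out. Values follow in the order DKO, KO and WT. As the mean of per-cell shares, the cytosolic share was 37.2%, 38.0% and 39.6% and the mitochondrial share 0.747%, 0.936% and 0.672%. In cells of 8000 to 16000 UMIs the shares were 37.6%, 40.3% and 39.5%, and 0.727%, 0.822% and 0.693%. With B lineage, neutrophil and erythroid classes left out they were 36.8%, 39.9% and 39.6%, and 0.768%, 0.844% and 0.686%. Without mitochondrially encoded genes in the total they were 37.8%, 37.7% and 40.4%, and 0.798%, 1.04% and 0.724%.

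Under TMM scaling the cytosolic median log2 ratios in KO/WT, DKO/KO and DKO/WT were 0.086 (a reversal), -0.22 and -0.12, and the mitochondrial ones 0.61, -0.52 and 0.13, against 0.075, -0.062 and 0.016 over all genes, which this scaling shifts by the same amount as the members. Cytosolic calls were then 4 higher and 0 lower in KO/WT and 5 lower in DKO/KO, and mitochondrial calls 46 higher in KO/WT, 0 higher and 29 lower in DKO/KO. The shares of all genes called were 13.8% higher and 11.8% lower in KO/WT, and 10.8% higher and 12.4% lower in DKO/KO. Without the lineage classes the cytosolic medians were 0.0373 (a reversal), -0.14 and -0.10 and the mitochondrial ones 0.26, -0.11 and 0.20, with 0 cytosolic calls in either direction in KO/WT, 1 mitochondrial call higher in KO/WT, and 0 lower calls of either set in DKO/KO. Of all genes 2.13% were then called higher and 7.50% lower in KO/WT, and 1.77% lower in DKO/KO, and the all-gene medians were -0.087, 0.14 and 0.054. With a total that left out ribosomal protein and mitochondrially encoded genes, the cytosolic medians were -0.13 in KO/WT, with 1 higher call (6.29% of all genes), and -0.14 in DKO/WT. The mitochondrial median in DKO/WT was then 0.10. Without paralogues the cytosolic medians were -0.0775 in KO/WT and -0.0196 in DKO/KO. At a lower threshold (a ratio of 5 to 4), cytosolic calls were 5 higher and 10 lower in KO/WT, 2 higher and 5 lower in DKO/KO and 2 lower in DKO/WT, and mitochondrial calls 59 higher in KO/WT, 39 lower in DKO/KO, and 11 higher and 1 lower in DKO/WT. At that threshold 20.2% of all genes were called higher and 31.5% lower in KO/WT, 33.8% and 15.5% in DKO/KO, and 17.2% and 11.9% in DKO/WT, so the 11 of 76 lay below the share of all genes. At 2-fold, calls of either set were 0 in KO/WT and DKO/KO. Of all genes 2.47% were then called higher and 6.71% lower in KO/WT, and 6.05% and 1.96% in DKO/KO. With any count above 0 in both libraries in place of 5 CPM, cytosolic calls were 2 lower in KO/WT (27.0% of all genes) and 2 higher in DKO/KO (26.7%). In DKO/WT 1 mitochondrial call was then lower (8.93% of all genes).

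The highest over the lowest class of the cytosolic share was 1.16 in DKO and 1.29 in KO at Leiden resolution 0.6, 1.128, 1.203 and 1.186 at resolution 1.5, and 1.12 in DKO and 1.18 in WT without the highest doublet scores. Their values as reported were 1.11 in DKO, 1.27 in KO and 1.18 in WT. For the mitochondrial share the ratio was 1.31 in DKO and 1.587 in KO at resolution 1.5, against 1.589 and 1.673 as reported. At that resolution DKO had 3 classes to compare in place of 5, and its highest class was the megakaryocyte-progenitor-like one in place of the erythroid-progenitor-like one. Other causes were not tested.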
